A study of Castanea mollissima with 2 samples.

Results

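A group of 209 gene entries was abundant in normal chestnut catkins and at least 8-fold lower in the shorter catkins of a mutant. It was drawn from 92000 entries of an RNA sequencing study of Chinese chestnut (Castanea mollissima). An entry was taken where the normal library held at least 300 expected counts (reads estimated per entry) and the ratio of mutant to normal counts was 1/8 or less, with 0.5 counts added to each and no scaling for depth. The members were thus chosen by their measured counts and ratio in these libraries, so every count, level and ratio of a member is a description and carries no test.

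The mutant group was 1 library of shorter catkins from the cultivar Heishanzhai7, and the normal group was 1 library of catkins from the cultivar Yanshanhong. The genotype label reads recessive for both, and no treatment, time or tree is given in the labels. Both libraries are labelled as catkin tissue, while their extraction protocol names berries. The mutant library held 19624934 counts and the normal library 23089247, and as neither group had a replicate, the intervals below cover counting error only. The mutant phenotype and the cultivar differed together and cannot be told apart, nor can fewer cells of a type be told from less RNA per cell.

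Catkins are the flower spikes of chestnut, most of which carry only male flowers. As a background, a spike of male flowers holds an axis, bracts and flowers whose anthers make pollen, and anther and pollen tissues carry abundant transcripts of their own. The tables pair the identifiers with no gene names, so no function is given to any member and the tissue was not checked against marker genes. The members are therefore described by their level, their length, the number of transcripts assigned to them and the components they belong to.

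Of the 9689 entries with at least 300 counts in the normal library, the 209 members made up 2.16%, a share that depends on the thresholds of the rule. In the opposite direction, 213 of the 9676 entries that reached 300 counts in mutant catkins were 8-fold or more higher there, or 2.2%. Each stricter threshold below was counted within the milder ones, so these numbers can only fall. Among the 9689 entries, 1451 (15%) were lower in the mutant library by 2-fold or more and 438 (4.52%) by 4-fold or more. A further step to 16-fold left 116 entries (1.2%), to 32-fold 75 entries (0.774%), to 64-fold 58 entries (0.599%), and to 256-fold 36 entries (0.372%). The last 36 include 18 entries at 0 in the mutant library, whose ratio is set by the added 0.5. The median log2 ratio of mutant over normal counts was -4.30 over the members, against -0.17 over the other 9480 entries that met the same count minimum and 0.05 over the 25994 entries whose counts in both libraries summed to 20 or more.

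**Figure D1:**
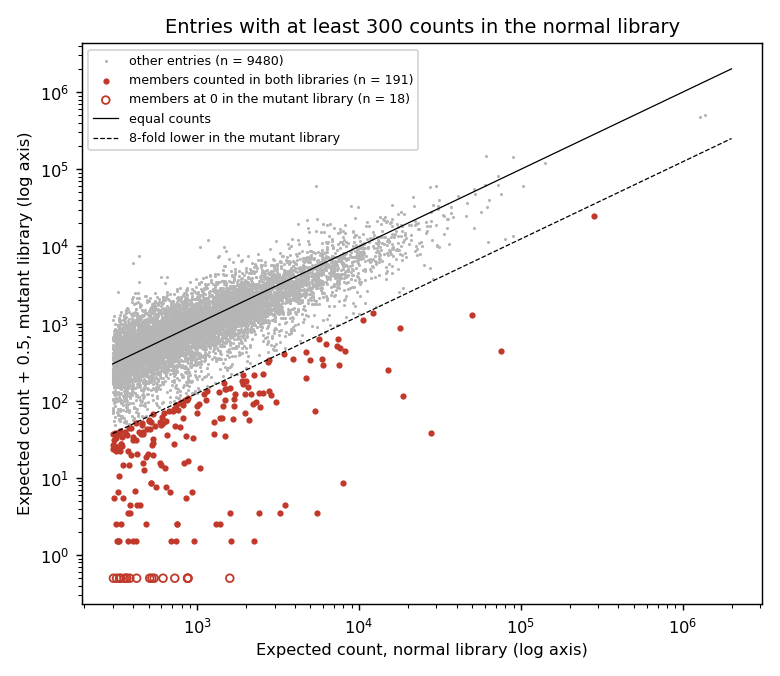
Expected counts in the mutant library (vertical, with 0.5 added) against the normal library (horizontal), both on log axes, for the 9689 entries with at least 300 normal counts. Red points are the 209 members, of which the 18 open circles were at 0 in the mutant library, and grey points are the other 9480 entries, which lie above the dashed line of an 8-fold lower count.

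The members took 0.23% of the mutant library's counts (Wilson 95% interval 0.228 to 0.232%) and 3.38% of the normal library's (3.37 to 3.39%). Summed over the members this was 45093 counts in the mutant and 779879 in the normal library, a 17.3-fold lower sum without scaling for depth. The TPM scale corrects for length and sums to the same total in each library. On it they held 4075 TPM in the mutant and 53266 TPM in the normal library, a 13.1-fold lower sum. These sums rested on few entries. The most abundant member held 55.1% of the members' counts in the mutant and 36.3% in the normal library, and the 10 most abundant held 68.2% and 66.6%. Without the most abundant member, the others held 0.103% of the mutant and 2.15% of the normal library's counts. Their sum was 24.5-fold lower by count without scaling for depth, and 20.1-fold lower by TPM.

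The most abundant member, c47363.graph_c0, is 725 bases long with 1 transcript. It had 24851 counts (2689 TPM) in the mutant and 283315 counts (25356 TPM) in the normal library. By count it ranked 37 in the mutant and 3 in the normal library. The mutant level was 11.4-fold lower by count (95% exact conditional interval 11.3 to 11.6) and 9.43-fold lower by TPM. It is the member with the highest level in both libraries, and the only one that stayed among the 2000 entries with the most counts in the mutant library, where the next member ranked 3079. In the normal library 43 members stood among the 2000 entries with the most counts, 25 among the first 1000 and 6 among the first 100.

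The next member, c53757.graph_c1, is 1523 bases long with 1 transcript. It had 436 counts (21.0 TPM) in the mutant and 75626 counts (3030 TPM) in the normal library. Its rank by count was 7868 in the mutant and 9 in the normal library. It was 173-fold lower in the mutant library (158 to 191), and stood among the 10 most counted entries in normal catkins alone.

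The other 8 of the 10 members with the most normal counts differed widely in how far they were reduced. An 807-base entry had 1277 counts (122 TPM) in the mutant and 50109 counts (3980 TPM) in the normal library and was 39.3-fold lower (37.1 to 41.5). A 1192-base entry had 38 counts (2.38 TPM) in the mutant and 27944 counts (1452 TPM) in the normal library and was 735-fold lower (536 to 1039). A 644-base entry had 114 counts (14.1 TPM) in the mutant and 18764 counts (1920 TPM) in the normal library and was 165-fold lower (137 to 200). All 3 exceeded 1000 TPM in normal catkins, and the 1192-base entry was the most deeply reduced of the 10.

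A 1548-base entry had 877 counts (41.5 TPM) in the mutant and 17905 counts (705 TPM) in the normal library and was 20.4-fold lower (19.1 to 21.9). A 915-base entry had 253 counts (21.1 TPM) in the mutant and 15085 counts (1043 TPM) in the normal library and was 59.6-fold lower (52.7 to 67.8). A 1071-base entry, with 8 transcripts the only one of the 10 with more than 1, had 440 counts (29.5 TPM) in the mutant and 8227 counts (480 TPM) in the normal library and was 18.7-fold lower (17.0 to 20.6). These 3 lay between the least and the most deeply reduced of the 10.

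The remaining pair lay close to the threshold. A 787-base entry had 1355 counts (134 TPM) in the mutant and 12106 counts (989 TPM) in the normal library and was 8.93-fold lower by count (8.45 to 9.46) and 7.39-fold lower by TPM. An 1109-base entry had 1109 counts (75.01 TPM) in the mutant and 10620 counts (596 TPM) in the normal library and was 9.58-fold lower by count (9.001 to 10.2) and 7.95-fold lower by TPM. Both therefore met the 8-fold criterion by count and missed it by TPM. The 5 members with the most counts in the mutant library were all among these 10: the 725-, 787-, 807-, 1109- and 1548-base entries. The normal count of each of the 10 carried a fraction, as an estimated count can where reads match several entries. Whether similar entries shared reads with them was not tested, so these counts are uncertain to that extent.

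**Figure D2:**
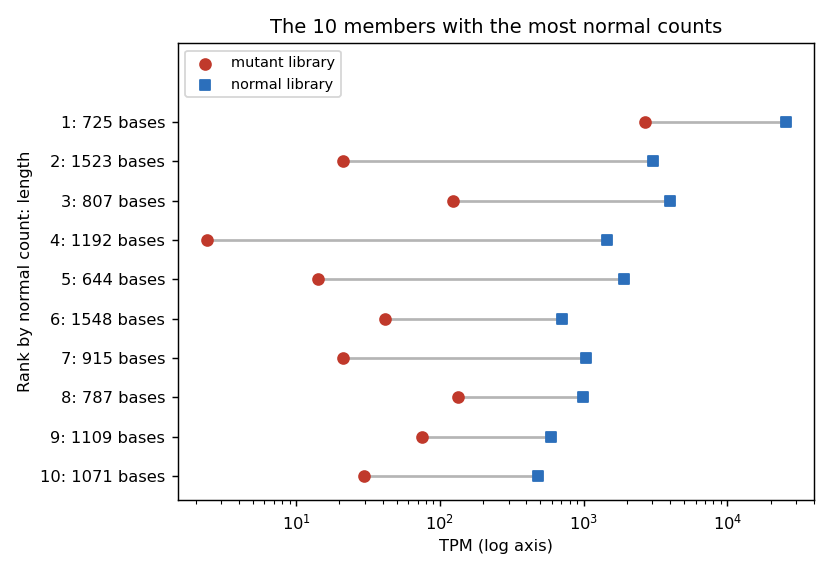
TPM on a log axis in the mutant (circles) and the normal library (squares) for the 10 members with the most counts in the normal library, from the most counted at the top, each labelled with its length. The gap was widest for the 1192-base entry, at 2.38 TPM in the mutant and 1452 TPM in the normal library, and narrowest for the 787-base entry, at 134 and 989 TPM.

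The depth of the reduction over all members had a long tail. Between 8- and 16-fold lower lay 93 members (44.5%), between 16- and 32-fold 41 (19.6%), between 32- and 64-fold 17 (8.13%) and between 64- and 256-fold 22 (10.5%). The remaining 36 (17.2%) were at least 256-fold lower with the added 0.5. Of these, 18 were at 0 in the mutant library, so the added 0.5 set their place. With 3 counts in place of 0 they were 101- to 529-fold lower, and not all would stay in this band. The bands were not ordered by how abundant the members were in normal catkins. In the mildest band the median level was 4.15 TPM in the mutant and 36.5 TPM in the normal library. In the deepest band it was 0.02 TPM in the mutant and 40.9 TPM in the normal library, and between 16- and 32-fold it was 3.17 TPM in the mutant and 61.6 TPM in the normal library. The mutant levels follow from the way the bands were defined.

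**Figure D3:**
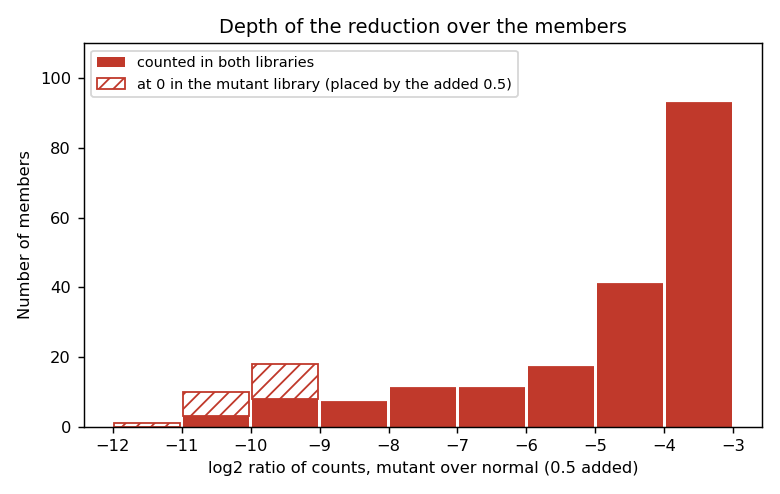
Number of members by log2 ratio of mutant over normal counts, in steps of 1 on the log2 scale, with the hatched part for members at 0 in the mutant library, whose place is set by the added 0.5 counts. The tallest bar, from -4 to -3, holds 93 members, the bar from -9 to -8 holds 7, and that from -10 to -9 holds 18, of which 10 were at 0.

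In the mutant library 158 of the 209 members had under 100 counts, 74 under 20 and 59 under 10. The 18 members at 0 had 303 to 1588 counts in the normal library, a median of 465, and none was among the 1000 entries with the most counts there. A count of 0 allows up to 3 counts, so each fold given for them is a minimum on that assumption. The most abundant of them, 789 bases long, had 1588 counts (129 TPM) in the normal library and was at least 529-fold lower. The exact conditional interval used for other members has a lower limit of 430-fold for this entry. These minima are therefore less strict than those intervals. The next 3 were alike in normal count, with 877 counts for a 1224-base entry (at least 292-fold lower), 872 for a 1315-base entry (at least 291-fold) and 871 for a 740-base entry (at least 290-fold). They were followed by a 420-base entry with 726 counts, a 946-base entry with 614 and a 724-base entry with 541. The last of the 10 most abundant were a 987-base entry with 524 counts, a 1447-base entry with 508 and a 1173-base entry with 422, the last at least 141-fold lower. These 10 thus spanned 420 to 1447 bases.

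Another 25 members had 1 to 3 counts in the mutant library, and some of these were far more abundant in normal catkins than any member at 0. A 1319-base entry had 3 counts (0.17 TPM) in the mutant and 5518 counts (257 TPM) in the normal library, and was 1839-fold lower with a counting interval of 629 to 8922. A 1208-base entry had 3 counts in the mutant and 3235 in the normal library, 1078-fold lower (369 to 5232). A 1653-base entry had 1 count in the mutant and 2254 in the normal library, 2254-fold lower (404 to 89070). The wide intervals show how little 1 to 3 counts fix the size of the difference.

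Counting error also touched the mild end. In 168 of the 209 members the whole 95% interval of the ratio lay at or beyond 8-fold lower, and in the other 41 it reached to smaller differences. The members closest to the ratio threshold were 8.01-, 8.07- and 8.09-fold lower with the added 0.5, with 109, 66 and 51 counts in the mutant and 877, 536 and 416 in the normal library. Just outside it stood entries 7.997-, 7.98- and 7.96-fold lower, with 218, 124 and 101 counts in the mutant and 1747, 993 and 807 in the normal library. At the threshold on abundance the nearest members had 36, 23 and 26 counts in the mutant and 301, 302 and 302 in the normal library. The nearest entries left out had 26, 31 and 2 counts in the mutant and 297, 297 and 297 in the normal library, and were 11.2-, 9.44- and 119-fold lower. The counts on either side of each threshold ran on without a gap.

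Length was not used by the rule, and the members were shorter than other entries that met the count minimum. Their median length was 1224 bases, against 1703 bases for the other 9480 entries with at least 300 normal counts. The members ran from 265 to 2772 bases, while the others reached 15651. The shortest member had 43 counts in the mutant and 487 in the normal library, and the longest had 130 in the mutant and 1357 in the normal library. Of the entries under 500 bases 8 of 133 (6.02%) were members, of those of 500 to under 1000 bases 65 of 1301 (5%), and of those of 1000 to under 1500 bases 69 of 2446 (2.82%). The share was 47 of 2298 (2.05%) at 1500 to under 2000 bases, 20 of 2386 (0.838%) at 2000 to under 3000 bases, and 0 of 1125 at 3000 bases or more. The share of members was therefore lower in each longer class.

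The trend with length was not limited to the members. Over all 9689 entries, the median log2 ratio of mutant over normal counts was -0.69, -0.56, -0.38, -0.22, 0.03 and 0.42 from the shortest to the longest of these 6 classes. With scaling to the library totals, which adds about 0.23 to every log2 ratio, the class of 1500 to under 2000 bases changed sign to 0.01 and the order stayed as it was. The 213 entries 8-fold or more higher in mutant catkins were short as well, with a median of 1039 bases against 1759 bases for all 9676 entries that reached 300 mutant counts, although 6 of them were 3000 bases or longer. Short length thus went with large differences in both directions. The part of length in the choice of the members was not tested.

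Because a given count stands for a lower level in a longer entry, the shares were also taken within levels of TPM. Among entries of at least 50 TPM in the normal library, members were 3.93% of those under 1000 bases, 2.63% of those of 1000 to under 2000 bases and 0.867% of those of 2000 bases or more. Among entries of 20 to under 50 TPM the shares were 6.48%, 2.02% and 0.799%. Below 20 TPM, where the count minimum leaves only 8 entries under 1000 bases, the shares were 2.87% at 1000 to under 2000 bases and 0.295% at 2000 bases or more. The share was lower in the longer entries at each of these TPM levels, but not at each level of count. Among entries of 3000 to under 10000 normal counts, members were 1 of 155 (0.645%) under 1000 bases, 14 of 484 (2.89%) at 1000 to under 2000 bases and 5 of 424 (1.18%) at 2000 bases or more.

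**Figure D4:**
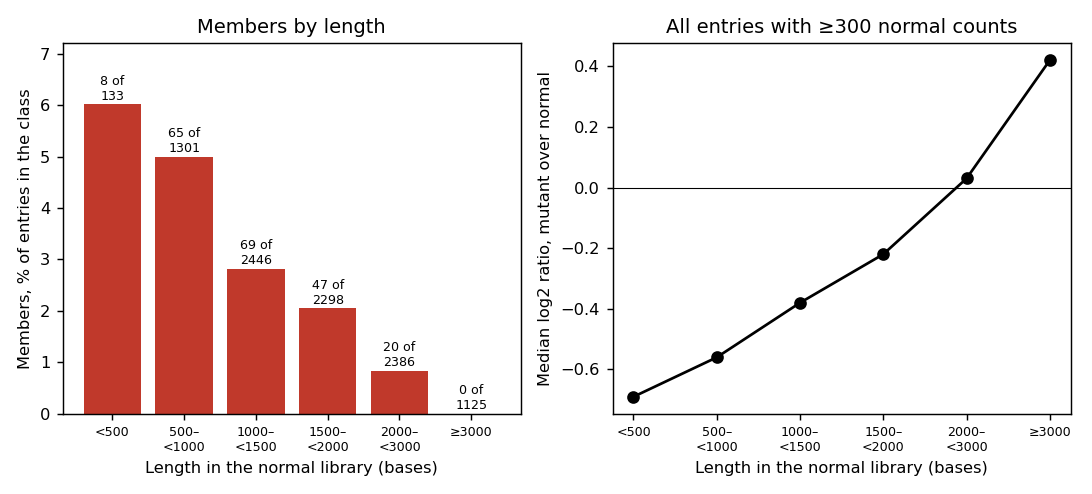
Left, members as a percentage of the entries with at least 300 normal counts in each length class, with the numbers above the bars, from 6.02% under 500 bases to 0 of 1125 at 3000 bases or more. Right, the median log2 ratio of mutant over normal counts of all entries in the same classes, from -0.69 to 0.42.

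Most members had a single transcript. This held for 163 of the 209 (78.0%), against 6071 of the other 9480 entries (64.04%) and 135 of the 213 entries 8-fold or more higher in mutant catkins (63.4%). Longer entries have more transcripts, so the shares of members were set side by side within length classes. Under 1000 bases, 5.37% of entries with 1 transcript and 4.11% of those with more were members. At 1000 to under 2000 bases the shares were 2.79% and 1.78%, and at 2000 bases or more 0.8% and 0.265%. In each class members made up a larger share of the entries with 1 transcript. The normal count was whole, to the 2 decimals deposited, in 46.9% of the members and 41.9% of the others.

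Of the 46 members with more than 1 transcript, 24 reached 20 counts in mutant catkins. The deposited length of such an entry changes where its transcripts are used in other proportions. It was at least 1.41-fold shorter in the mutant library in 2 of the 24 and longer by that factor in 0, against 16 and 27 of 3409 such entries outside the group. The larger of the 2 had a length of 951 bases in the mutant and 1834 in the normal library, with 542 counts (43.4 TPM) in the mutant and 6222 counts (205 TPM) in the normal library. It was 11.5-fold lower by count and 4.73-fold lower by TPM, since TPM counts the same reads against a shorter length. The other had 508 bases in the mutant and 813 in the normal library, with 32.02 counts in the mutant and 316 in the normal library. It was 9.87-fold lower by count and 4.75-fold lower by TPM. The depth of the reduction in this pair thus depended on the unit.

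The first part of an identifier is a component number, and entries that share it are called partners here. The tables do not say whether partners are pieces of one gene, alleles or related genes. The 209 members belonged to 208 components, as a single component held 2 members. One of these 2 had 43 counts in the mutant and 508 in the normal library, and the other 0 in the mutant and 383 in the normal library. Besides, 31 entries that are not members shared a component with a member, and 23 of them, the partners of 18 members, reached 20 counts when both libraries were summed.

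These 23 partners were split. Their median log2 ratio of mutant over normal counts was -0.89, against 0.05 over all 25994 entries that reached 20 counts. At least 2-fold lower in the mutant library were 11 partners, of which 5 were at least 8-fold lower, against 15.4% and 3.36% of the 25994 entries. Another 9 differed by less than 2-fold and 3 were at least 2-fold higher. A partner that met the rule would itself be a member, which limits how low an abundant partner could be. With a minimum of 100 counts over both libraries the median was 0.34, a change of sign.

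The component of c53757.graph_c1, the member with 436 counts in the mutant and 75626 in the normal library, showed the contrast at high counts. A 2399-base partner had 15538 counts (465 TPM) in the mutant and 9108 counts (227 TPM) in the normal library. A 1759-base partner had 7520 counts (311 TPM) in the mutant and 16233 counts (559 TPM) in the normal library. So 1 partner was 1.71-fold higher and the other 2.16-fold lower, while the member itself was 173-fold lower.

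Another component held a 2576-base member with 105 counts in the mutant and 1696 in the normal library. Its 1492-base partner had 3709 counts in the mutant and 2143 in the normal library, and its 4762-base partner had 1074 in the mutant and 736 in the normal library. In a further component the case was the opposite, with a 713-base partner at 599 counts in the mutant and 4314 in the normal library, 7.21-fold lower and just outside the rule. In yet another, a 1079-base partner with 5 counts in the mutant and 235 in the normal library had a log2 ratio of -5.42, below the -4.32 of its member. Partners thus ranged from more reduced than their member to higher in the mutant library.

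**Figure D5:**
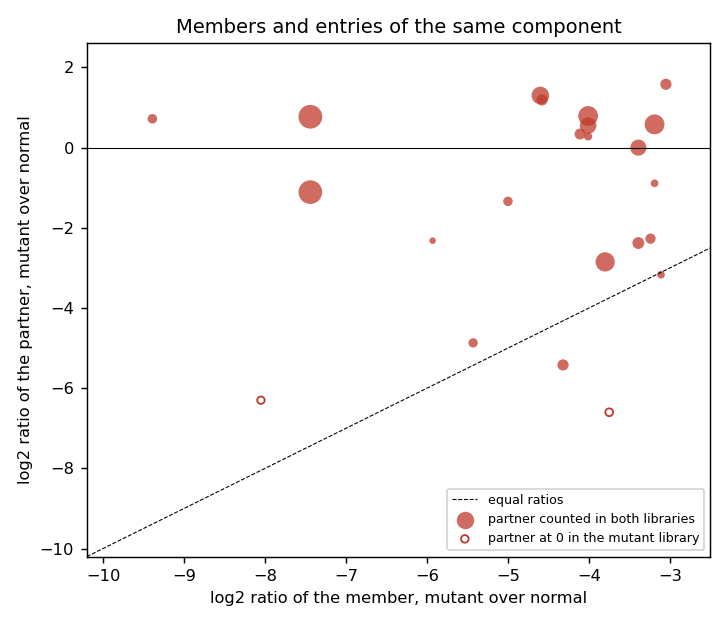
Log2 ratio of mutant over normal counts of each of 23 partners with at least 20 counts (vertical) against that of the member of the same component (horizontal). Larger points have more counts, open circles were at 0 in the mutant library, and points on the dashed line would have equal ratios; 10 partners lie above a ratio of 1, the solid line.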

How the data were processed

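Per the submitters' processing notes, HISAT and RSEM were used; for their versions, their roles and the reference, the labels state nothing. The deposited tables hold, per the file headers, expected counts, TPM, FPKM, length and effective length (other values, in bases) for 92000 entries. The members and all lists were chosen with earlier results of these data known. Ratios used the deposited expected counts with 0.5 added. Expected counts were rounded for intervals and for TMM factors (edgeR 4.0.16, R 4.3.3, entries with at least 20 counts). TMM-effective totals were 21232577 in the mutant and 21341025 in the normal library. Intervals of ratios are exact conditional (Clopper-Pearson) and those of shares Wilson, at 95%; they treat reads as independent. A count of 0 allows 3 counts, or 0.153 CPM in the mutant and 0.13 CPM in the normal library. TPM and FPKM ratios used an added 0.01 where members were counted. With 1 library per group no test was made and no p-value computed. The rule was tested on simulated data with planted differences and counting error only. These data held no variation between catkins, trees or cultivars. Identifiers were printed for the 2 members with the most normal counts. The others described were the 10 members with the most normal counts, the 10 most abundant at 0 in the mutant library, the 5 with the most mutant counts, the shortest and longest, and 3 on each side of the thresholds. Members with 1 to 3 mutant counts, with changed lengths or with partners were picked after their values were seen. Python 3.11.15, scipy 1.17.1 and pandas 2.3.3 were used.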

Additional observations from a re-analysis of the deposited data

How the results depend on the processing

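The number of members followed the thresholds: 377 entries with a minimum of 100 counts, 77 with 1000, 3816 with no minimum, 438 at a ratio of 1/4, 116 at 1/16 and 92 with counts whole to 2 decimals in both libraries. It stayed within 1.5 times of 209 under TMM (208), total-count (177) and median-of-ratios (209) scaling. The same held with TPM (173), FPKM (174), a pseudocount of 5 (198) and where the interval had to lie within the rule (168). All of these entries were members. For TMM and total-count scaling, the pseudocount of 5 and the interval, this was fixed beforehand, as each raises the ratios or narrows the rule. The median log2 ratio ran from -4.30 to -4.05 over its 7 alternatives. The members' share was 0.408% of summed TPM in the mutant and 5.33% in the normal library, and without the most abundant member 0.103% and 2.15% of counts. With a minimum of 1000 counts their median length was 1376 bases and 84.4% had 1 transcript. The partners' median log2 ratio was 0.34 with a minimum of 100 counts and -0.88 with TMM scaling. Total-count scaling and TPM moved c47363.graph_c0 to -3.28 and -3.24 and c53757.graph_c1 to -7.20 and -7.17 on the log2 scale. No paired analysis was possible because neither group had a replicate, which also precludes leaving out a library. Depth limits the size of the difference for the 59 members under 10 mutant counts.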

Other observations

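Members were unevenly spread over component numbers. Between 56200 and under 57600, a range picked after the values were seen, 48 of 815 entries with at least 300 normal counts (5.89%) were members, against 161 of the other 8874 (1.81%). The share was nearly as high between 30000 and under 35000, at 13 of 234 (5.56%), so the range was not alone. Entries in this range were short, with a median of 1280 bases. Within length classes the shares inside and outside the range were 10.3% and 4.03% under 1000 bases, 4.4% and 2.26% at 1000 to under 2000 bases, and 3.07% and 0.448% at 2000 bases or more. Entries 8-fold or more higher in mutant catkins were 35 of 758 (4.62%) inside the range and 178 of 8918 (2%) outside it. The tables do not say how component numbers were given.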
